A study of Mus musculus with 12 samples.

Results

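Aminoacyl-tRNA synthetases are the enzymes that attach each amino acid to its transfer RNA (tRNA), and 36 genes that encode them were followed in isolated pancreatic islets of C57BL/6J mice. They were taken by gene symbol from the 14089 genes of the count table, and all 36 were present and tested. Of these, 20 encode enzymes of the cytosol and 16, whose symbols end in 2, encode enzymes of the mitochondrion. The islets were held for 24 h in one of 4 conditions, with 3 RNA-seq libraries each. In the first, ML351 at 10 µM was given together with 3 cytokines: 5 ng/ml of interleukin-1β, 10 ng/ml of tumour necrosis factor α and 100 ng/ml of interferon γ. The other conditions were the same mixture without ML351 (called cytokines here), ML351 without cytokines, and vehicle. ML351 is an inhibitor of 12/15-lipoxygenase, which oxygenates polyunsaturated fatty acids. All libraries came from 1 strain, with no transgene or gene deletion named in the labels.

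In animal cells the cytosol and the mitochondrion each translate with their own charged tRNAs, and both enzyme sets are encoded in the nucleus. Kars and Gars are known to encode the cytosolic and the mitochondrial enzyme for lysine and glycine from a single gene, and no separate mitochondrial enzyme exists for glutamine, whose mitochondrial tRNA is charged through glutamate and then amidated by a complex of Gatb, Gatc and Qrsl1. Several cytosolic enzymes sit in the multisynthetase complex, held by the scaffold proteins Aimp1, Aimp2 and Eef1e1. Many cytosolic synthetase genes are known targets of Atf4, the transcription factor of the amino acid response, which binds C/EBP-ATF response elements. In human cells WARS, which charges tryptophan, is also known as a gene induced by interferon γ. Pancreatic beta cells are heavy secretors, and their protein synthesis is regulated by nutrients and by stress of the endoplasmic reticulum.

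The promoters that hold the core of the C/EBP-ATF response element are shown first, because that motif is the one through which Atf4 is known to act. Its share among the cytosolic genes was also above that among all genes with a promoter. RefSeq promoters on GRCm38.p6, running from 250 bases before to 50 bases after the annotated start, were at hand for 13 cytosolic and 14 mitochondrial members. Cars, Hars, Lars, Nars, Rars, Vars, Wars, Hars2 and Pars2 had none in the table. The core TGATGNAA, searched on both strands, was found in 5 of 13 cytosolic promoters (38.5%) and in 0 of 14 mitochondrial ones. The share was 4.51% among all 27025 genes with a promoter in the table. It was 2.82% among the 10692 genes counted here whose symbol led to a promoter. The members were also looked up by synonym, and those 10692 genes were not. The 5 promoters follow in the direction of transcription, with the matches in capitals. They lie at chr8:111033592-111033891 on the plus strand (Aars), chr6:55037751-55038050 on the plus strand (Gars), chr13:49681880-49682179 on the plus strand (Iars), chr15:11399609-11399908 on the minus strand (Tars) and chr4:129189653-129189952 on the plus strand (Yars).
Aars: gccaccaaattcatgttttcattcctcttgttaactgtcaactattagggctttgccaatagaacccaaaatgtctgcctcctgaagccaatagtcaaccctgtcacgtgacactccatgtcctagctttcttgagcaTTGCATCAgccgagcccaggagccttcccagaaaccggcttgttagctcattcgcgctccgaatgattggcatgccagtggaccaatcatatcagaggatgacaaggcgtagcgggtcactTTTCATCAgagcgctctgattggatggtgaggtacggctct
Gars: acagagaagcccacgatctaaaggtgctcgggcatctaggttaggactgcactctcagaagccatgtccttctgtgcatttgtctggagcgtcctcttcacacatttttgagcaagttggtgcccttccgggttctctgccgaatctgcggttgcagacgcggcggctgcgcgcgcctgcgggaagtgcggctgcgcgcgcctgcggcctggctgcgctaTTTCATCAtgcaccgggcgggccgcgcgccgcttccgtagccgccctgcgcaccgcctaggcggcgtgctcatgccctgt
Iars: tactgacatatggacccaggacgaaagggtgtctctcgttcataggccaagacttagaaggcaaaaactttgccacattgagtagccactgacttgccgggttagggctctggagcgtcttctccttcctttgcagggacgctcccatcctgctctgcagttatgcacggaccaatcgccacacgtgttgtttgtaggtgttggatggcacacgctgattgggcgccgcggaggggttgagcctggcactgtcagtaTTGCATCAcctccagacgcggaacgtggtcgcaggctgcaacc
Tars: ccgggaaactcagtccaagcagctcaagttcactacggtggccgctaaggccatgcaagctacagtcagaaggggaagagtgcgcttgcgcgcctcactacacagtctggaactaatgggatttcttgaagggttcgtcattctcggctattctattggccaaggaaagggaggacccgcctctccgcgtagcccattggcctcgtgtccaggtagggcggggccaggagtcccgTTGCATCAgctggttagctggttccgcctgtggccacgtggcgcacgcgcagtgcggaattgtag
Yars: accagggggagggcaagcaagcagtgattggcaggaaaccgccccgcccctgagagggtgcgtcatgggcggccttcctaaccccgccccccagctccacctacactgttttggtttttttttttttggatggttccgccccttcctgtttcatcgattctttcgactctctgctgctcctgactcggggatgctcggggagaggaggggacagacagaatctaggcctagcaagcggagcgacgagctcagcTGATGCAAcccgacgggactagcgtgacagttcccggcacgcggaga
The match read TTGCATCA in Aars, Iars and Tars and TTTCATCA in Gars and at a second place in Aars, both of these being the minus-strand form, and TGATGCAA in Yars. It began 112 bases before the start in Aars, 30 bases before it in Gars and 15 bases before it in Tars, while in Iars, in Yars and at the second place in Aars it began within 10 bases after the start.

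A pair of interferon-related motifs was less concentrated in the class. The core of the interferon-stimulated response element was found in 1 of 13 cytosolic promoters, that of Qars, and in 0 of 14 mitochondrial ones. The share among all genes with a promoter was 3.99%. The gamma-activated site TTCNNNGAA was found in Aars and Kars, 2 of 13 cytosolic promoters, and in Nars2, 1 of 14 mitochondrial ones. For this motif the share among all genes with a promoter was 9.55%. A match is a run of letters in a window and says nothing of whether a factor binds there.

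Library totals ran from 20208286 to 27193026 counts, and single members were counted from 58 times (Mars2) to 103389 times (Lars2) in a library. Counting error was therefore small for all but the rarest enzymes. Levels are given as CPM, counts scaled to the size of the library, with TMM scaling, and changes as log2 fold changes with a standard error (SE) from edgeR's quasi-likelihood test. The p-values were adjusted by the Benjamini-Hochberg method over all 14089 genes, and a gene was called at an adjusted p under 0.05. Whether the 3 libraries of a condition stem from different mice or cultures is not said in the labels, so the p-values cover the spread between these samples alone, and that spread may be technical. Libraries of the same group differed by more than sampling noise, with a chi-square per degree of freedom of 4.07 to 21.0.

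Marker genes of several islet cell types moved with the cytokines. The summed level of 5 alpha-cell markers was 679 to 1599 CPM with cytokines plus ML351 and 723 to 1354 CPM with cytokines, against 27450 to 40100 CPM with ML351 and 34920 to 39100 CPM with vehicle. In cytokines against vehicle, 8 of 10 beta-cell markers, all 4 delta-cell markers tested and 8 of 8 endothelial markers were called lower. Of 10 macrophage markers, 6 were called higher and 1 lower. Among all genes tested, 35.3% were called higher and 37.2% lower. The libraries carried islet RNA throughout, since the 10 beta-cell markers summed to 257300 CPM or more in each library. In bulk tissue, fewer cells of a type and less RNA per cell cannot be told apart. The part of these shifts in the synthetase results was not tested.

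In vehicle islets the cytosolic genes mostly stood at higher levels than the mitochondrial ones. Dividing by exon length (CPM per kb of the exons annotated in GENCODE M21 on GRCm38), the median cytosolic level in vehicle islets was 19.1 and the median mitochondrial level was 3.37. Gars was the highest cytosolic gene in vehicle islets, with 120.5 ± 2.97 CPM per kb (SD, n = 3), followed by Mars with 73.7 ± 3.63, Nars with 59.3 ± 1.70 and Wars with 54.7 ± 1.90 CPM per kb. Qars had the lowest cytosolic level per length, 5.25 ± 0.174 CPM per kb.

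Some mitochondrial genes broke this pattern, Lars2 by far the most. Rars2 lay above Eprs (10.65 CPM per kb), Farsa (7.79) and Qars (5.25). Iars2 (6.02 CPM per kb) and Hars2 (5.29) also lay above Qars. Lars2, the mitochondrial leucyl-tRNA synthetase (chr9:123366927-123462666), stood at 349 ± 11 CPM per kb in vehicle islets, above all 35 other members, while Rars2, the next mitochondrial gene, stood at 13.0 ± 1.49 and Wars2 at 1.00 ± 0.0300 CPM per kb. Lars2 accounted for 93.0 to 93.5% of the summed CPM of the 16 mitochondrial genes in vehicle libraries. No other annotated exon overlapped those of Lars2. A count per gene does not show where along the gene its reads lay.

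**Figure D1:**
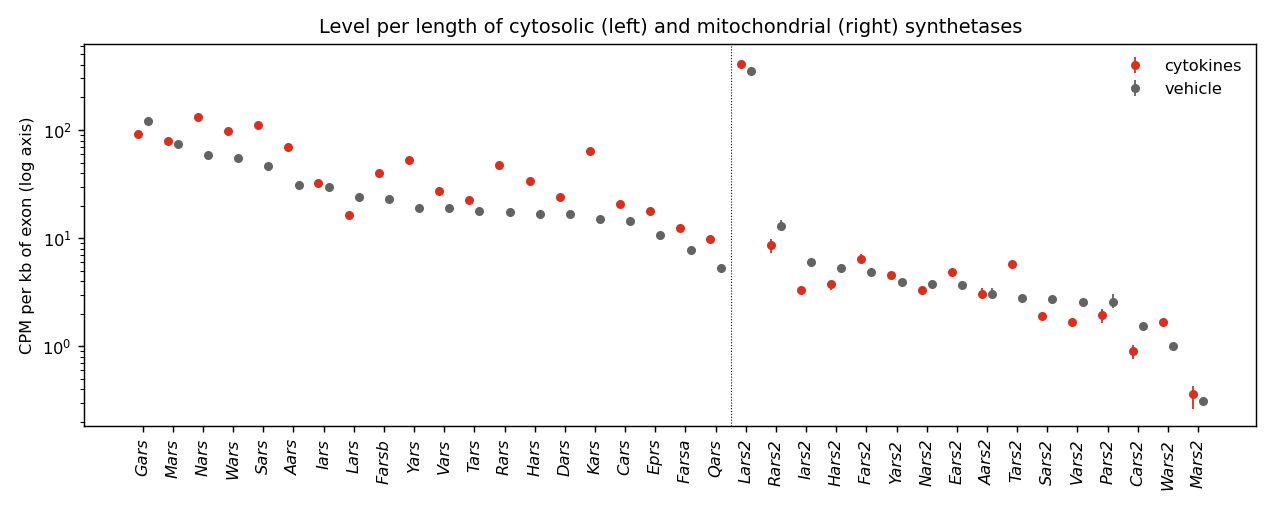
Level of each synthetase gene per kb of annotated exon (log axis) in cytokine-treated islets (red) and vehicle islets (grey). Points are means of 3 libraries and bars run from the lowest to the highest library. Cytosolic genes are left of the dotted line. Lars2, at 349 CPM per kb in vehicle islets, stands above all others, and the other mitochondrial genes lie at 13.0 CPM per kb or below.

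Cytokines changed most cytosolic synthetases, and mostly upward. In cytokines against vehicle, 16 of 20 cytosolic genes rose, 2 fell and 2 did not pass the test, with a median log2 fold change of 0.77. Across all genes tested, 72.5% were called, 35.3% higher and 37.2% lower, and the median was -0.02. The mitochondrial class was divided, with 5 of 16 genes called higher, 7 called lower and 4 not called, and a median log2 fold change of -0.09. The cytosolic count of higher calls lay well above the share among all genes, and the mitochondrial counts lay near the shares among all genes.

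The same comparison could be made in the presence of ML351, between 6 libraries other than those compared first. Both tests drew on the fit of all 12 libraries, with a shared estimate of the spread, so their calls are not independent. There, in cytokines plus ML351 against ML351, 16 of 20 cytosolic genes rose, 2 fell and 2 were not called, with a median log2 fold change of 0.56, beside 71.5% called among all genes, 35.2% higher and 36.4% lower, and a median of -0.02. Of the mitochondrial genes, 5 were called higher, 5 lower and 6 were not called, and the median was -0.15. The 16 cytosolic genes that rose, the 2 that fell and the 2 not called were the same ones in both comparisons. In the mitochondrial class the same 5 genes rose in both, and the 5 that fell with ML351 also fell without it. Hars2 and Sars2 were called only in the absence of ML351, and for neither did the test of that difference pass the threshold (interaction in edgeR, adjusted p = 0.55 for Hars2 and 0.52 for Sars2).

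**Figure D2:**
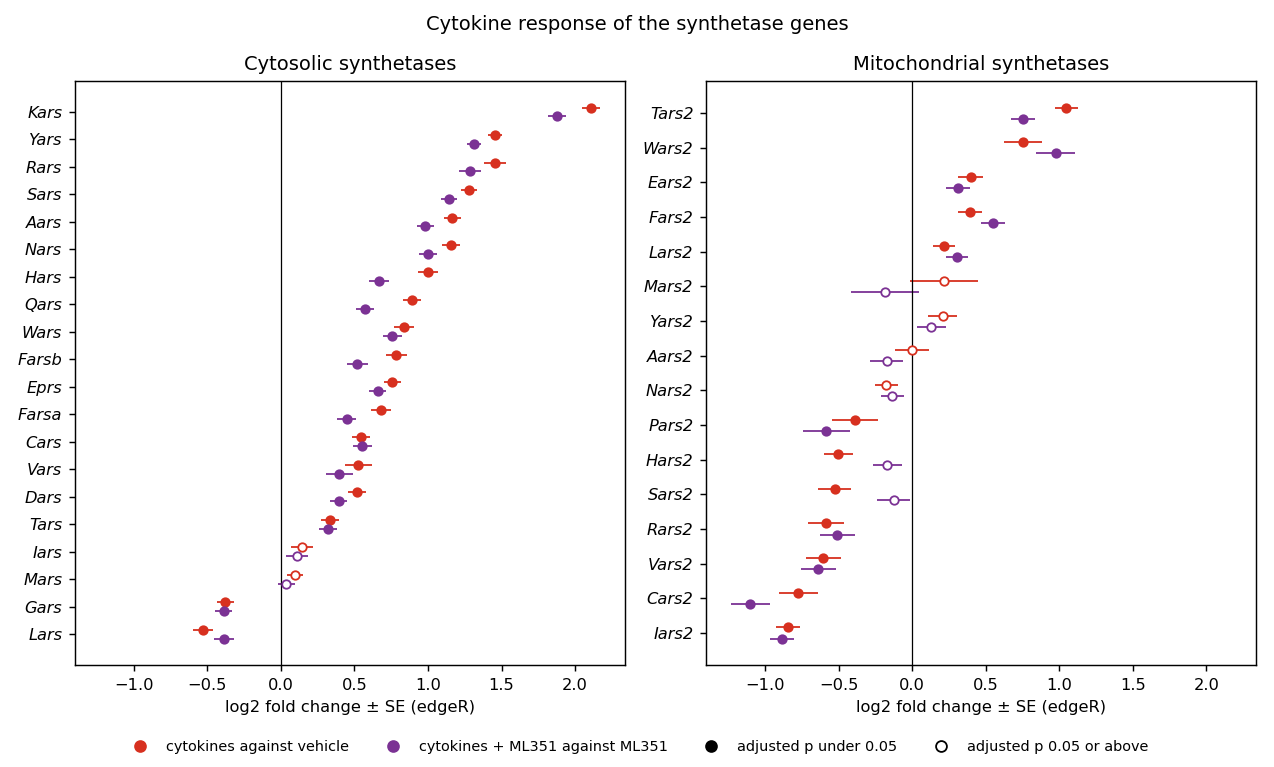
Cytokine response of the 20 cytosolic genes (left) and the 16 mitochondrial genes (right), as log2 fold change ± SE from edgeR. Red points compare cytokines with vehicle and purple points compare cytokines plus ML351 with ML351, and filled points have an adjusted p under 0.05. In each comparison 16 cytosolic genes lie right of zero with filled points, from Tars at 0.34 to Kars at 2.11 without ML351, while the mitochondrial genes lie on both sides.

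Kars, the lysyl-tRNA synthetase (chr8:111993443-112011323), had the largest change of any member in both comparisons. Its transcripts stood at 275, 293 and 294 CPM in the 3 cytokine libraries, against 71.1, 64.6 and 63.8 CPM in the vehicle libraries. With ML351 present they stood at 261, 238 and 257 CPM in the libraries with cytokines plus ML351, against 69.7, 67.8 and 68.2 CPM in those with ML351. All 6 libraries with cytokines lay far above all 6 without. Kars rose by a log2 fold change of 2.11 (SE 0.0606, edgeR adjusted p = 6.2e-15) in cytokines against vehicle and of 1.88 (SE 0.0601, edgeR adjusted p = 2.9e-14) in cytokines plus ML351 against ML351.

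Yars, Rars and Sars, which charge tyrosine, arginine and serine, followed in both comparisons. Yars stood at 307, 314 and 316 CPM with cytokines against 114.1, 113.5 and 113.7 CPM with vehicle, a log2 fold change of 1.46 (SE 0.0478, edgeR adjusted p = 3.6e-14). With ML351 present, Yars stood at 282, 280 and 288 CPM with cytokines plus ML351 against 114, 115 and 112 CPM with ML351, a log2 fold change of 1.31. The vehicle and ML351 libraries of Yars overlapped each other and lay well below every library with cytokines. Rars stood at 151, 156 and 155 CPM with cytokines against 59.8, 55.9 and 52.8 CPM with vehicle, a log2 fold change of 1.45 (SE 0.0755, edgeR adjusted p = 1.5e-11). Sars stood at 547, 584 and 598 CPM with cytokines against 239, 235 and 239 CPM with vehicle, a log2 fold change of 1.28 (SE 0.0542, edgeR adjusted p = 1e-12). Neither gene's cytokine libraries overlapped the vehicle ones, as was also the case for 5238 of 14089 genes in the higher and 5553 in the lower direction. With ML351 present, Rars stood at 152, 134 and 156 CPM with cytokines plus ML351 against 66.3, 55.7 and 59.7 CPM with ML351, a log2 fold change of 1.28. Sars there stood at 558, 536 and 594 CPM with cytokines plus ML351 against 259, 256 and 251 CPM with ML351, a log2 fold change of 1.14.

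Besides Wars, 11 other cytosolic genes rose by less. Aars (alanine) and Nars (asparagine) rose by log2 fold changes of 1.17 and 1.16 in cytokines against vehicle, Hars (histidine) by 1.00 and Qars (glutamine) by 0.89. Farsb and Farsa, which encode the beta and alpha subunits of the phenylalanyl enzyme, rose by 0.78 and 0.68, and Eprs, a bifunctional enzyme for glutamate and proline, by 0.76. Cars (cysteine), Vars (valine), Dars (aspartate) and Tars (threonine) rose least, by 0.54, 0.52, 0.52 and 0.34. The same 11 genes in cytokines plus ML351 against ML351 had log2 fold changes from 0.32 for Tars to 1.00 for Nars, each past the threshold. Exons of Aars overlap those of Exosc6 over 14.3% of their length and exons of Farsb overlap those of Sgpp2 over 9.47%, so that part of their reads cannot be assigned without doubt.

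Iars and Mars, which charge isoleucine and methionine, did not pass the test in either comparison. Mars stood at 276, 270 and 262 CPM with cytokines against 242, 248 and 266 CPM with vehicle, with overlapping ranges and a log2 fold change of 0.10 (SE 0.0573, edgeR adjusted p = 0.14). It stood at 270, 250 and 245 CPM with cytokines plus ML351 against 248, 260 and 239 CPM with ML351, a log2 fold change of 0.04 (edgeR adjusted p = 0.58). The sign of this Mars value depended on the scaling, since with upper quartile scaling it was -0.03 and -0.08 in the same comparisons, and with scaling by the library total -0.04 in the second. Iars stood at 179.1, 179.2 and 159.2 CPM with cytokines against 162, 158 and 150 CPM with vehicle, with a log2 fold change of 0.14 (SE 0.0752, edgeR adjusted p = 0.1). With ML351 present Iars stood at 181, 182 and 170 CPM with cytokines plus ML351 against 179, 171 and 143 CPM with ML351, a log2 fold change of 0.11 (edgeR adjusted p = 0.2) that was -0.01 with upper quartile scaling. In cytokines against vehicle Iars passed the threshold without ML351 replicate 3 (adjusted p = 0.041) or without cytokines replicate 4 (0.04), and Iars (0.021) and Mars (0.048) both passed when only the vehicle and cytokine libraries were fitted. Iars also passed in cytokines plus ML351 against ML351 without ML351 replicate 1 (0.048). Mars shares 68 bases of exon with Ddit3 on the opposite strand, a gene that rose strongly, and a non-stranded library cannot separate reads from that stretch.

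Gars and Lars went against the rest of the cytosolic class. Gars, which supplies the glycyl enzyme to both compartments, stood at 293, 297 and 276 CPM with cytokines against 381, 365 and 382 CPM with vehicle, and fell by a log2 fold change of -0.38 (SE 0.0581, edgeR adjusted p = 1.5e-05). Lars, the cytosolic leucyl enzyme, stood at 92.3, 91.6 and 81.5 CPM with cytokines against 125, 128 and 131 CPM with vehicle, and fell by a log2 fold change of -0.53 (SE 0.0689, edgeR adjusted p = 2.3e-06). In neither gene did the groups overlap, as was also the case for 5553 of 14089 genes in the lower direction. With ML351 present, Gars stood at 298, 283 and 269 CPM with cytokines plus ML351 against 380, 388 and 346 CPM with ML351. Lars there stood at 100.4, 97.5 and 99.4 CPM with cytokines plus ML351 against 143, 128 and 119 CPM with ML351. Both had a log2 fold change of -0.39 there (edgeR adjusted p = 1.2e-05 for Gars and 7.4e-05 for Lars). Gars was the most abundant cytosolic gene per length in vehicle islets, so that the order of the class changed, and with cytokines Nars stood highest at 132 CPM per kb.

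**Figure D3:**
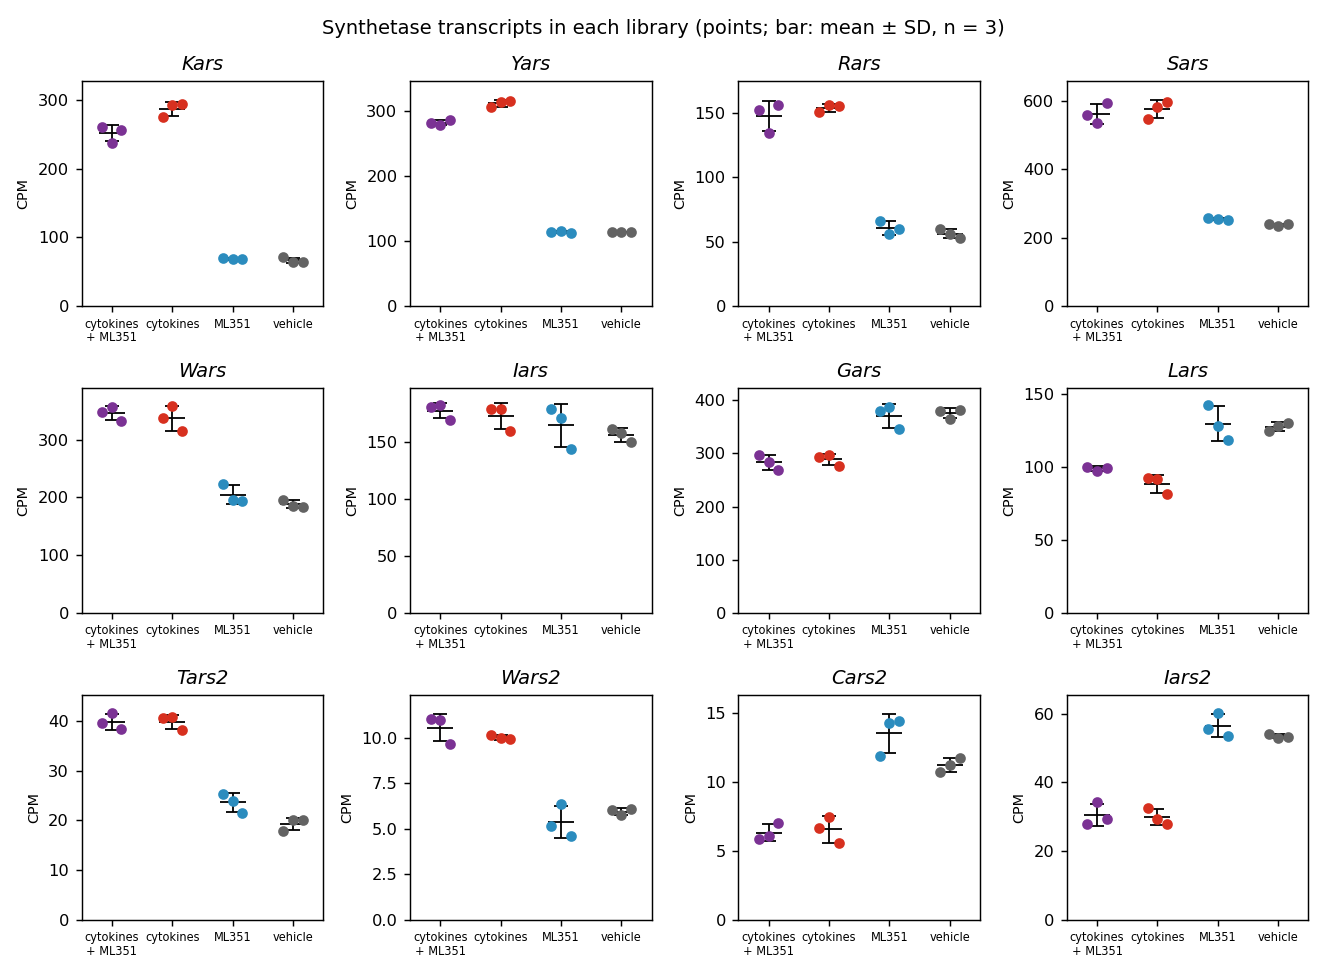
CPM of 12 synthetase genes in each library, by group, with the mean and SD (n = 3) as black bars and each axis starting at zero. Kars, Yars, Rars and Sars were the cytosolic genes with the largest rises, and their 6 libraries with cytokines lie clear of the 6 without. Wars rose less, Iars overlapped between groups, and Gars and Lars were lower with cytokines. Of the mitochondrial genes, Tars2 and Wars2 rose while Cars2 and Iars2 fell.

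By enzyme class, 9 of 10 cytosolic class II genes rose in cytokines against vehicle and 1 fell (Gars), with a median log2 fold change of 0.89. Of the 10 class I genes, whose catalytic domain is a Rossmann fold, 7 rose, 1 fell (Lars) and 2 were not called (Iars and Mars), with a median of 0.65. The counts were the same in cytokines plus ML351 against ML351, and the medians were 0.59 for class II and 0.56 for class I. Over all genes tested, 35.3% were called higher and 37.2% lower without ML351, and 35.2% and 36.4% with it. Among the 8 synthetases of the multisynthetase complex, Kars, Rars, Qars, Eprs and Dars rose, Lars fell, and Iars and Mars were not called, in both comparisons, with medians of 0.64 and 0.48.

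The 3 scaffold genes of the complex rose in both comparisons, beside 35.3% of all genes called higher without ML351 and 35.2% with it. Aimp1 stood at 39.6, 40.7 and 48.1 CPM with cytokines against 14.5, 14.2 and 15.2 CPM with vehicle, a log2 fold change of 1.55 (SE 0.0945, edgeR adjusted p = 1.3e-10). Aimp2 rose by 0.88 and Eef1e1 by 0.53 on the log2 scale, and in cytokines plus ML351 against ML351 the 3 genes rose by 1.48, 0.72 and 0.62 in the same order.

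Wars, the cytosolic tryptophanyl-tRNA synthetase (chr12:108860030-108894174), behaved as a middle member of its class in these islets. It stood at 338, 358 and 314 CPM with cytokines against 196, 186 and 184 CPM with vehicle, and rose by a log2 fold change of 0.84 (SE 0.0653, edgeR adjusted p = 3.4e-09). With ML351 present it stood at 348, 357 and 333 CPM with cytokines plus ML351 against 224, 196 and 194 CPM with ML351, a log2 fold change of 0.76 (SE 0.0650, edgeR adjusted p = 1.3e-08). The groups did not overlap in either comparison. The same held in the higher direction for 5238 of 14089 genes without ML351 and 5132 with it. Its change ranked 9 of 20 cytosolic genes without ML351, where the other 19 had a median of 0.76, and 7 of 20 with ML351, where their median was 0.55. As a share of the summed cytosolic CPM, Wars made up 6.91 to 7.70% with cytokines plus ML351, 6.52 to 7.24% with cytokines, 6.40 to 7.18% with ML351 and 6.40 to 6.74% with vehicle. These ranges overlapped between cytokines and vehicle and between cytokines plus ML351 and ML351, while those of cytokines plus ML351 and of vehicle were apart.

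Wars2, the mitochondrial enzyme for the same amino acid, also rose, at a low level. It stood at 10.2, 10.0 and 9.93 CPM with cytokines against 6.03, 5.75 and 6.08 CPM with vehicle, a log2 fold change of 0.75 (SE 0.131, edgeR adjusted p = 6e-05). With ML351 present it stood at 11.04, 11 and 9.69 CPM with cytokines plus ML351 against 5.14, 6.38 and 4.61 CPM with ML351, a log2 fold change of 0.97 (edgeR adjusted p = 3.4e-06). The log2 fold changes of the cytosolic and the mitochondrial tryptophan enzyme differed by 0.08 in the first comparison, Wars being higher, and by -0.22 in the second, Wars2 being higher. These differences were not tested.

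Genes that degrade tryptophan were sparse in these libraries. Of the 12 genes listed for that pathway 8 were tested, while Kmo, Haao, Qprt and Acmsd are not analysed here. In cytokines against vehicle 2 of the 8 were called higher, 2 lower and 4 were not called, beside 35.3% higher and 37.2% lower among all genes. Ido1, which opens the kynurenine pathway and is a classic interferon γ target, stood at 2.82, 8.29 and 13.4 CPM with cytokines, against counts of 0, 3 and 0 in the vehicle libraries (edgeR adjusted p = 8e-05). Ido2 stood at 0.927, 1.52 and 1.26 CPM with cytokines and had 0 counts in each vehicle library (edgeR adjusted p = 1.4e-05). Kyat3, a kynurenine aminotransferase, fell by a log2 fold change of -1.28 (edgeR adjusted p = 2.9e-06), and Aadat, another such enzyme, was below 1 CPM in each library and was called lower. Of the 8 genes, 2 were called higher, 3 lower and 3 not at all in cytokines plus ML351 against ML351. Among all genes the shares there were 35.2% higher and 36.4% lower.

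Of the mitochondrial synthetases that rose, Tars2 changed most in cytokines against vehicle, and Wars2 in cytokines plus ML351 against ML351. Tars2, for threonine, stood at 40.6, 40.8 and 38.2 CPM with cytokines against 17.8, 19.99 and 20.1 CPM with vehicle, a log2 fold change of 1.05 (SE 0.0801, edgeR adjusted p = 2.6e-09). With ML351 present it stood at 39.6, 41.6 and 38.4 CPM with cytokines plus ML351 against 25.4, 23.9 and 21.6 CPM with ML351, a log2 fold change of 0.75. Its libraries did not overlap in either comparison, as for 5238 of 14089 genes in the higher direction without ML351 and 5132 with it. Ears2, for glutamate, stood at 25.8, 24.7 and 24.7 CPM with cytokines against 18.3, 20.3 and 18.5 CPM with vehicle (log2 fold change 0.40, SE 0.0849, edgeR adjusted p = 4.3e-04). Fars2, for phenylalanine, stood at 33.7, 36.4 and 41.3 CPM with cytokines against 28.7, 26.5 and 29.4 CPM with vehicle (log2 fold change 0.40, SE 0.0822, edgeR adjusted p = 3.6e-04). With ML351 present the log2 fold changes were 0.31 for Ears2 and 0.55 for Fars2, both past the threshold.

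Lars2 was the remaining mitochondrial gene that rose, by less. It stood at 4168, 4784 and 4550 CPM with cytokines against 4002, 3760 and 3858 CPM with vehicle, a log2 fold change of 0.22 (SE 0.0737, edgeR adjusted p = 0.014). With ML351 present it stood at 3822, 4152 and 3400 CPM with cytokines plus ML351 against 3172, 3184 and 2864 CPM with ML351, a log2 fold change of 0.30 (edgeR adjusted p = 0.0015). The groups did not overlap, though the nearest libraries lay close. Groups were also apart in the higher direction for 5238 of 14089 genes without ML351 and 5132 with it. The call in cytokines against vehicle was lost without vehicle replicate 2 (adjusted p = 0.055), without cytokines replicate 3 (0.079), with upper quartile scaling (0.25) and with scaling by the library total (0.12).

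The mitochondrial genes that fell were led by Iars2, Cars2, Vars2 and Rars2. Iars2, for isoleucine, stood at 32.4, 29.2 and 27.8 CPM with cytokines against 54.2, 53.0 and 53.3 CPM with vehicle, a log2 fold change of -0.84 (SE 0.0812, edgeR adjusted p = 5.5e-08). Cars2, for cysteine, stood at 6.69, 7.46 and 5.54 CPM with cytokines against 10.7, 11.3 and 11.7 CPM with vehicle, a log2 fold change of -0.77 (SE 0.131, edgeR adjusted p = 4.8e-05). Vars2, for valine, stood at 8.59, 9.86 and 9.27 CPM with cytokines against 13.4, 14.7 and 14 CPM with vehicle, a log2 fold change of -0.60 (SE 0.120, edgeR adjusted p = 2.3e-04). The ranges were apart in all of these, as they were in Rars2, for arginine, at 27.4, 24.3 and 20.3 CPM with cytokines against 33.5, 33.7 and 40.8 CPM with vehicle (log2 fold change -0.58, SE 0.122, edgeR adjusted p = 5e-04). They were also apart in the lower direction for 5553 of 14089 genes.

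With ML351 present the same 4 genes fell again. Iars2 stood at 27.9, 34.2 and 29.4 CPM with cytokines plus ML351 against 55.6, 60.2 and 53.6 CPM with ML351, a log2 fold change of -0.89. Cars2 stood at 5.86, 6.09 and 6.997 CPM with cytokines plus ML351 against 11.9, 14.3 and 14.5 CPM with ML351, a log2 fold change of -1.10 and the largest fall of any member there. The log2 fold changes of Vars2 and Rars2 were -0.64 and -0.51. The exons of Iars2 overlap those of Rab3gap2 on the opposite strand over 2034 bases, 22.9% of their length. Those of Vars2 overlap an antisense gene over 8.52%, those of Cars2 overlap Naxd over 5.83% and those of Fars2 overlap Nrn1 over 8.72%. These counts may hold reads of both partners. Of the 36 members, 13 share exon bases with another gene.

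In cytokines against vehicle smaller falls were seen in Sars2, Hars2 and Pars2, for serine, histidine and proline. Their log2 fold changes there were -0.53, -0.50 and -0.39, and in cytokines plus ML351 against ML351 they were -0.13 (adjusted p = 0.31), -0.17 (adjusted p = 0.13) and -0.58 (adjusted p = 0.0032). Pars2 stood at 6.09, 6.82 and 5.14 CPM with cytokines against 9.34, 7.01 and 7.27 CPM with vehicle, and its call there (edgeR adjusted p = 0.034) was lost without vehicle replicate 1 (0.21), cytokines replicate 1 (0.068) or cytokines replicate 4 (0.14), and by DESeq2 (0.062). Aars2, Mars2, Nars2 and Yars2 were not called in either comparison, with log2 fold changes between -0.19 and 0.22. The scaling, the filter or the libraries fitted decided some of these. In cytokines against vehicle Nars2 was called lower with upper quartile scaling (adjusted p = 0.0028), with the library total (0.01) and with a filter of 1 CPM in 3 libraries. Yars2 was called higher there with DESeq2 size factors (0.046) or without ML351 replicate 1 (0.05 after rounding). With cytokines plus ML351 against ML351, Aars2 (0.026), Hars2 (0.012) and Nars2 (0.0084) were called lower with upper quartile scaling, as were Hars2 (0.033) and Nars2 (0.019) with the library total. Mars2 was the rarest member, at 0.315 CPM per kb in vehicle islets, and its SE of 0.231 was the widest of the class.

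For 13 amino acids both a cytosolic and a mitochondrial gene were among the members, Farsa, Farsb and Eprs having been left out of this pairing because the first encode subunits of one enzyme and the last serves a pair of amino acids. The cytosolic log2 fold change lay above the mitochondrial one in 10 of 13 pairs in each comparison, with a median difference of 1.17 in cytokines against vehicle and of 1.04 in cytokines plus ML351 against ML351. In cytokines against vehicle, the cytosolic gene rose while its mitochondrial counterpart fell for cysteine, histidine, arginine, serine and valine. With ML351 present this held for 3 of those, cysteine, arginine and valine. Leucine was the reverse case in both, with Lars lower and Lars2 higher, and for threonine and tryptophan both genes rose. Hars and Hars2 are divergent neighbours on chromosome 18 that share 195 bases of exon on opposite strands. Their counts still moved apart, with log2 fold changes of 1.00 and -0.50.

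The summed levels show the same divergence. The 20 cytosolic genes summed to 4866 ± 69.9 CPM with cytokines against 2863 ± 51.3 CPM with vehicle, and to 4723 ± 90 CPM with cytokines plus ML351 against 3007 ± 143 CPM with ML351 (SD, n = 3 each). The 15 mitochondrial genes other than Lars2 summed to 266 ± 7.14 CPM with cytokines against 284 ± 7.21 CPM with vehicle, and to 278 ± 4.94 CPM with cytokines plus ML351 against 298 ± 7.59 CPM with ML351. The ratio of the cytosolic sum to this mitochondrial sum was 16.3 to 17.6 with cytokines plus ML351 and 17.6 to 18.8 with cytokines, against 9.71 to 10.5 with ML351 and 9.85 to 10.4 with vehicle. With Lars2 included, the mitochondrial sum was mostly that gene, and the ratio of its means in cytokines over vehicle was 1.15, against 0.939 without it.

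**Figure D4:**
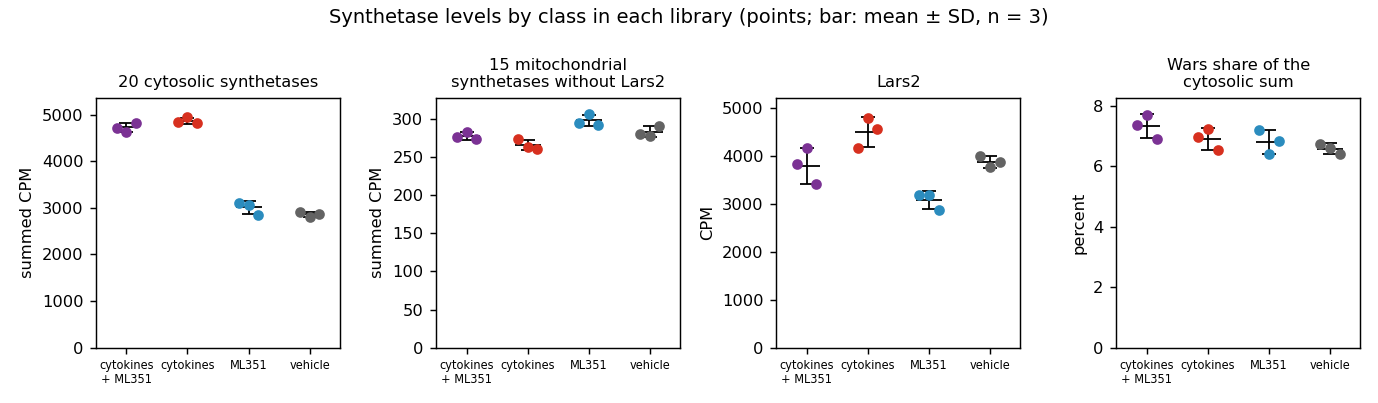
Summed CPM of the 20 cytosolic genes, summed CPM of the 15 mitochondrial genes other than Lars2, CPM of Lars2, and the share of the cytosolic sum held by Wars, in each library with the mean and SD (n = 3). The cytosolic sum is 4635 CPM or more in the 6 libraries with cytokines and 3112 CPM or less in the 6 without. The Wars share runs from 6.40 to 7.70% over all libraries.

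The cytosolic genes that carry the TGATGNAA core in the promoters shown above had a lower median change than those without it. Of the 5 carriers, Aars, Tars and Yars rose in cytokines against vehicle, Gars fell and Iars was not called, with a median log2 fold change of 0.34. Of the 8 cytosolic genes whose promoter held no match, 7 rose and Mars was not called, with a median of 0.77. The medians were 0.32 for carriers and 0.55 for the others in cytokines plus ML351 against ML351. Kars, with the largest rise, was among those without a match in the 300 bases searched.

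Genes of the amino acid response changed in both directions with cytokines, more of them upward. Of 28 genes listed, 17 rose, 8 fell and 3 were not called in cytokines against vehicle, with a median log2 fold change of 0.55. Among all genes, 35.3% were called higher and 37.2% lower there. In cytokines plus ML351 against ML351, 16 rose and 7 fell, with a median of 0.49. The shares among all genes were then 35.2% higher and 36.4% lower. Ddit3, a stress-induced transcription factor, stood at 464, 520 and 518 CPM with cytokines against 19.0, 20.1 and 19.0 CPM with vehicle, a log2 fold change of 4.69 (SE 0.0741, edgeR adjusted p = 3.2e-18). Trib3, a pseudokinase that is a target of Atf4 and Ddit3, rose by 3.19, Eif4ebp1, which restrains cap-dependent translation, by 1.75, and Slc3a2, the heavy chain of amino acid exchangers, by 1.49 on the log2 scale. Atf4 itself rose by 0.97 and Asns, the asparagine synthetase, by 0.55, both chosen after their values were seen. Among the genes that fell, likewise chosen after their values were seen, were Aldh1l2, a mitochondrial folate enzyme, with a log2 fold change of -0.85, and Slc38a2, a transporter of neutral amino acids, with -0.53. The summed level of the 28 genes was 5205 to 5349 CPM with cytokines plus ML351 and 4956 to 5419 CPM with cytokines, against 2398 to 2611 CPM with ML351 and 2402 to 2467 CPM with vehicle.

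Elongation factors use the charged tRNAs in the next step of cytosolic translation. Of 7 such genes, 6 rose and 1 fell in both comparisons, with median log2 fold changes of 0.62 and 0.47. Among all genes tested, 35.3% were called higher and 37.2% lower without ML351, and 35.2% and 36.4% with it. Eif5a, the hypusinated factor, rose by 1.07 (SE 0.0604, edgeR adjusted p = 4.4e-11) in cytokines against vehicle, Eef1g by 0.99, Eef1a1, which delivers charged tRNA to the ribosome, by 0.67, and Eef1d by 0.62. The gene that fell was Eef1a2, the paralogue of Eef1a1 found in neurons and muscle, at 1.41, 0.638 and 0.806 CPM with cytokines against 5.14, 5.42 and 3.45 CPM with vehicle.

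Most of the mitochondrial translation factors were not called. Of 13 genes, 3 rose, 3 fell and 7 were not called in cytokines against vehicle, and 3 rose, 2 fell and 8 were not called in cytokines plus ML351 against ML351, with a median log2 fold change of -0.02 in each, the same as over all genes. Among all genes, 35.3% were higher and 37.2% lower in the first comparison, and 35.2% and 36.4% in the second. Mrrf, the mitochondrial ribosome recycling factor, stood at 32.3, 35.8 and 38.5 CPM with cytokines against 17.6, 17.8 and 16.7 CPM with vehicle, a log2 fold change of 1.03 (SE 0.0929, edgeR adjusted p = 2.3e-08). Gfm2, which acts with Mrrf, rose by 0.46 and Mtif3, an initiation factor, by 0.38. Gatc, a subunit of the amidotransferase that completes glutaminyl-tRNA, fell with a log2 fold change of -0.49. The count of falls in cytokines against vehicle was 6 with upper quartile scaling and 1 by DESeq2 or without vehicle replicate 4, ML351 replicate 1, cytokines replicate 1 or cytokines replicate 3. In cytokines plus ML351 against ML351 it was 4 with upper quartile scaling, 1 by DESeq2 or without replicate 4 of cytokines plus ML351, and 0 without ML351 replicate 1, ML351 replicate 2 or replicate 2 of cytokines plus ML351.

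Genes of tRNA maturation and editing were called in shares near those of all genes. Of 23 genes, 6 rose, 8 fell and 9 were not called in cytokines against vehicle, with a median log2 fold change of -0.04. Among all genes, 35.3% were called higher and 37.2% lower there. In cytokines plus ML351 against ML351, 8 rose, 7 fell and 8 were not called, beside 35.2% higher and 36.4% lower among all genes. Xpot, which exports tRNA from the nucleus, stood at 62.5, 62.5 and 53.9 CPM with cytokines against 103.5, 103.6 and 104.2 CPM with vehicle, a log2 fold change of -0.80 (SE 0.0725, edgeR adjusted p = 2.5e-08). Aarsd1, an editing protein for mischarged alanyl-tRNA, rose by 0.88, Rpp30, a subunit of ribonuclease P, by 0.90, and Elac2, which trims the tail of precursor tRNAs, by 0.67.

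ML351 without cytokines left the synthetases without a call. In ML351 against vehicle, 0 of 36 members passed the threshold in edgeR, beside 0.0355% of all genes (5 of 14089). At an unadjusted p under 0.05 there were 3 cytosolic genes, all higher, and 4 mitochondrial genes, 3 higher and 1 lower, beside 8.98% of all genes. DESeq2 called 1 member, Lars2, at an adjusted p of 0.00078, and 110 genes in all. Median log2 fold changes were 0.07 in the cytosolic class and 0.05 in the mitochondrial class, beside 0.01 over all genes.

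The 3 members with the smallest p in that comparison were Lars2, Tars2 and Hars. Lars2 stood at 3172, 3184 and 2864 CPM with ML351 against 4002, 3760 and 3858 CPM with vehicle, a log2 fold change of -0.33 (SE 0.0738, edgeR adjusted p = 0.15). Without replicate 4 of cytokines plus ML351, whose group enters the shared estimate of the spread, that adjusted p was 0.026. Tars2 stood at 25.4, 23.9 and 21.6 CPM with ML351 against 17.8, 19.99 and 20.1 CPM with vehicle (log2 fold change 0.29, SE 0.0807, edgeR adjusted p = 0.22). Hars stood at 50, 50.4 and 45.6 CPM with ML351 against 44.8, 40.4 and 38.5 CPM with vehicle, a difference of 0.24 on the log2 scale (SE 0.0689, edgeR adjusted p = 0.25). Ranges of these 3 genes did not overlap between the groups, as was also the case for 8.57% of all genes in the higher and 7.32% in the lower direction. The 10 macrophage markers summed to 163 to 183 CPM with ML351 against 219 to 223 CPM with vehicle. Of them 1 was called lower, beside 0.0213% of all genes. Wars had a log2 fold change of 0.12 (SE 0.0650, adjusted p = 0.64) and Kars of 0.04.

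In islets that also received cytokines, Qars was the 1 member called for ML351. In cytokines plus ML351 against cytokines, 1 of 36 members passed the threshold, and it was lower, beside 1.43% of all genes (202 of 14089), 0.646% higher and 0.788% lower. Of the 202 calls, 45% were higher. That split was 33.3% with DESeq2 size factors, 38.3% with upper quartile scaling and 71.8% with scaling by the library total. Qars, the glutaminyl-tRNA synthetase (chr9:108507706-108515941), stood at 50.6, 49.3 and 50.7 CPM with cytokines plus ML351 against 62.2, 68.0 and 61.6 CPM with cytokines, and fell by a log2 fold change of -0.35 (SE 0.0603, edgeR adjusted p = 0.012). The groups did not overlap, as was also the case for 1429 of 14089 genes in the higher and 1448 in the lower direction. All 6 libraries lay above those with ML351 (33.2 to 34.5 CPM) and with vehicle (33.6 to 35.8 CPM). The call was lost without cytokines replicate 3 (adjusted p = 0.056) and with scaling by the library total (0.058), and DESeq2 called Qars among 3 cytosolic genes that were lower.

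Markers of other cell types also differed in that comparison. Of the endothelial markers 3 of 8 and of the macrophage markers 2 of 10 were called lower, beside 0.788% of all genes. The 16 acinar markers tested summed to 928 to 1358 CPM with cytokines plus ML351 against 45.1 to 832 CPM with cytokines. Of the 16, 1 was called higher, beside 0.646% of all genes. Cuzd1 was at 0 in cytokines replicate 1 and the other 15 were detected in each library. Within the cytokine group the acinar sums of replicates 1, 3 and 4 were 45.1, 570 and 832 CPM, beside 62.2, 68.0 and 61.6 CPM of Qars. In cytokines plus ML351 against ML351, 10 of the 16 acinar markers were called higher and 1 lower, beside 35.2% higher and 36.4% lower among all genes. Bhlha15 went down, at 15.5, 13.2 and 12.5 CPM with cytokines plus ML351 against 113, 110 and 105 CPM with ML351. The acinar sums of the libraries with ML351 were 202 to 342 CPM. The part of these markers in the result for Qars was not tested. In cytokines against vehicle, 0 of 16 acinar markers were called higher and 1 lower, beside 35.3% higher and 37.2% lower among all genes. Of the 16, 13 had a log2 fold change above zero, with a median of 0.42, and the vehicle libraries summed to 246 to 677 CPM. The part of acinar RNA in the rise of the cytosolic genes was not tested.

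Other members in cytokines plus ML351 against cytokines stayed short of the threshold. Sars2 stood at 7.92, 9.01 and 9.07 CPM with cytokines plus ML351 against 6.05, 6.48 and 6.35 CPM with cytokines, with a log2 fold change of 0.46 (SE 0.113, edgeR adjusted p = 0.053). It crossed the threshold with upper quartile scaling (adjusted p = 0.05 after rounding), by DESeq2 (0.049) and with a filter of 1 CPM in 3 libraries (0.048). Lars2 had a log2 fold change of -0.25 (adjusted p = 0.11), Kars of -0.19 (0.11) and Yars of -0.14 (0.14). At an unadjusted p under 0.05 there were 6 cytosolic genes, 1 higher and 5 lower, and 3 mitochondrial genes, 2 higher and 1 lower, beside 15.7% of all genes. Wars had a log2 fold change of 0.04 (adjusted p = 0.83).

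**Figure D5:**
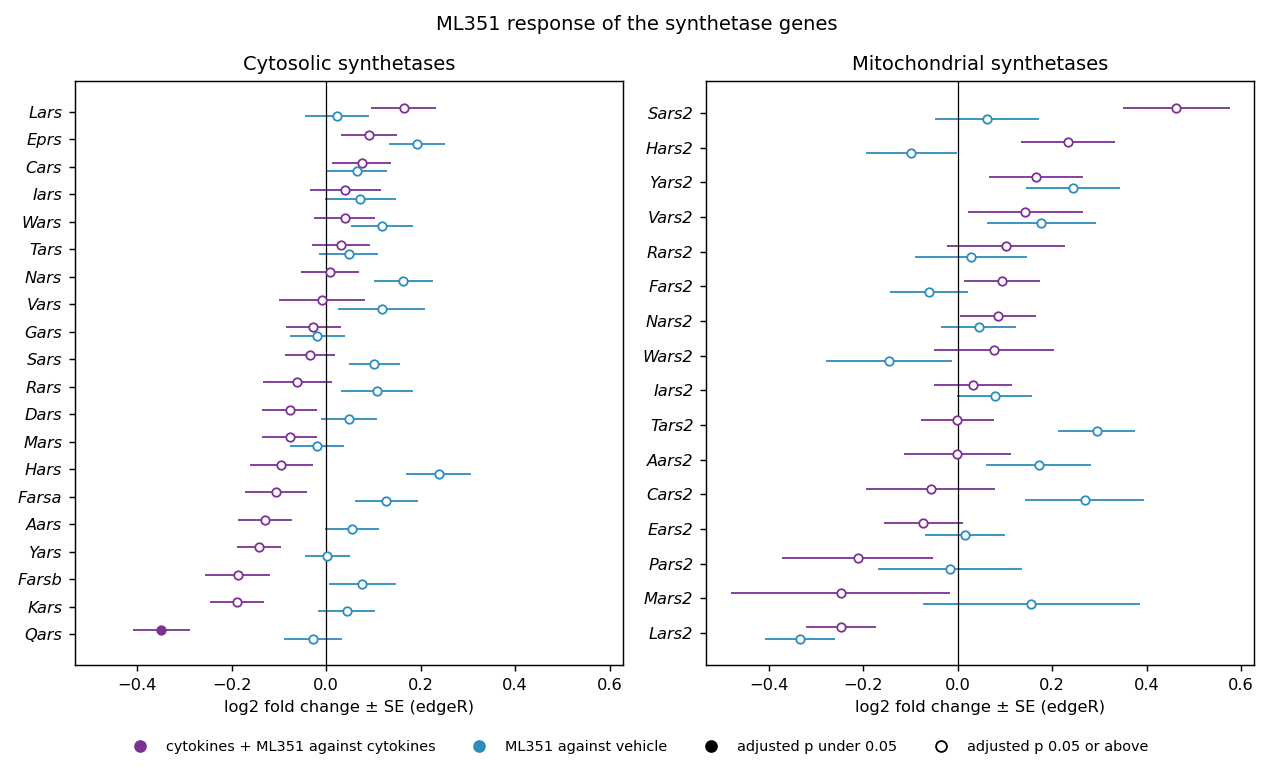
Response of the synthetase genes to ML351, as log2 fold change ± SE from edgeR, in islets with cytokines (purple, cytokines plus ML351 against cytokines) and without (blue, ML351 against vehicle). Filled points have an adjusted p under 0.05. The 1 filled point is Qars in islets with cytokines, at -0.35, and every other point is open, including Sars2 at 0.46.

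The interaction asks whether the response to cytokines differed with ML351, and 0 of 36 members passed the threshold for it in edgeR, beside 0.0071% of all genes (1 of 14089). DESeq2 called 0 members and 58 genes in all. At an unadjusted p under 0.05 there were 7 cytosolic genes, all below zero, and 3 mitochondrial genes, 2 above and 1 below, beside 8.23% of all genes. The smallest p were those of Qars with an interaction of -0.32 (SE 0.0864, edgeR adjusted p = 0.36), Hars with -0.33 (SE 0.0962, adjusted p = 0.37) and Kars with -0.23 (SE 0.0829, adjusted p = 0.46), on the log2 scale. The interaction was below zero in 18 of 20 cytosolic genes, with a median of -0.13, and in 9 of 16 mitochondrial genes, with a median of -0.04. Over all genes tested its median was -0.01, and it was above zero in 6830 of 14089. The members were measured in the same 12 libraries, so these counts of signs are not separate observations.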

How the data were processed

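The authors deposited whole-number read counts by gene symbol for each library, neither scaled nor pooled. The SMARTSeq v4 libraries are non-stranded, per the labels' protocols, so reads from overlapping genes cannot be told apart. FastQC, STAR, Subread with featureCounts, DESeq2 and the build mm10 were used, per the submitters' processing notes, which give no versions or roles. Which annotation and low-count filter were applied is not given in the sources used here.

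The 12 libraries, 3 in each of 4 groups taken from the treatment labels, were fitted together with a mean per group in edgeR 4.0.16 (R 4.3.3, TMM scaling, filterByExpr, robust glmQLFit, glmQLFTest). The filter removed no gene. SE was taken as the size of the change over the root of F. Totals of at least 20208286 counts left counting error small except near 100 counts or fewer. Alternatives were other scalings, filters and library choices, a replicate block, and DESeq2 1.42.0. The script was tested on simulated data.

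All 36 members are named. Values per library are given for Wars, for the 4 genes of each class at either end of the response to cytokines against vehicle, and for members called (or the 3 with the smallest p) in the ML351 comparisons and the interaction. Some further genes are given per library because their calls were unstable. Of the other lists, up to 4 tested genes with the smallest p are named, and Eef1a2, Atf4, Asns, Aldh1l2 and Slc38a2 were added after their values were seen. The members and lists were chosen with earlier results of these data known. Exon lengths and coordinates came from GENCODE M21 (GRCm38) and promoters from RefSeq (GRCm38.p6). Lists of marker genes for stellate, ductal and lymphocyte cells were also counted in cytokines against vehicle, by edgeR at an adjusted p under 0.05. Of 8 stellate and fibroblast markers 6 were lower and 1 higher. Of 7 ductal markers 4 were higher and 1 lower, and of 3 lymphocyte markers 2 were higher and 1 lower. Among all genes, 35.3% were called higher and 37.2% lower there.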

Additional observations from a re-analysis of the deposited data

How the results depend on the processing

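The 18 cytosolic genes called in each cytokine comparison kept their calls under all 20 alternatives run. The 10 mitochondrial calls in cytokines plus ML351 against ML351 were kept in all 20, and of the 12 in cytokines against vehicle at least 11 were kept. With upper quartile scaling, which moved the median of all genes to -0.15 in cytokines against vehicle and to -0.14 in cytokines plus ML351 against ML351, the cytosolic medians were 0.65 and 0.44, the mitochondrial medians -0.21 and -0.27, and 8 mitochondrial genes were lower in the second. Scaled by the library total, the cytosolic medians were 0.70 and 0.48.

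Calls for ML351 moved most. In ML351 against vehicle, 5 genes were called, against 0 with DESeq2 size factors, 2 with upper quartile scaling, 110 by DESeq2, 16 with only the groups compared, and 0 to 17 with 1 library left out. DESeq2 called 1 mitochondrial gene lower, and 0 to 1 were lower with a library left out. In cytokines plus ML351 against cytokines, 202 genes were called, against 78 with the library total, 527 by DESeq2, 59 with only the groups compared, and 54 (without cytokines replicate 4) to 236 with 1 library left out, with 74 without cytokines replicate 1 or 3. Cytosolic genes lower were 0 with the library total, 3 by DESeq2 and 0 to 1 with a library left out. Mitochondrial genes higher were 1 with upper quartile scaling, by DESeq2 and with the 1 CPM filter, and DESeq2 called 1 lower. Interaction calls over all genes were 0 with the library total, 58 by DESeq2 and 0 to 1 with a library left out. Ratios of summed mitochondrial CPM without Lars2 were 0.939 (cytokines over vehicle), 0.932 (cytokines plus ML351 over ML351), 1.05 (ML351 over vehicle) and 1.04 (cytokines plus ML351 over cytokines), against 1.15, 1.21, 0.811 and 0.854 with it. That alternative was chosen after seeing the data.

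Signs turned for Aars2, Mars, Iars, Mars2 and Wars, none of them called in the comparison concerned. Aars2 in cytokines against vehicle was 0.0227 with DESeq2 size factors, 0.0234 by DESeq2 and 0.0189 with only the groups compared, and -0.0875 to 0.106 with a library left out. Mars in that comparison was -0.0270 with upper quartile scaling. In cytokines plus ML351 against ML351, upper quartile scaling gave -0.0070 for Iars and -0.0809 for Mars, the library total gave -0.0410 for Mars, and leaving out a library gave -0.0033 to 0.0737 for Mars and -0.32 to 0.0060 for Mars2. Wars in cytokines plus ML351 against cytokines ran from -0.0083 to 0.0859 with a library left out. The causes were not tested.

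Libraries with the same replicate number were seldom alike: of 13 same-numbered pairs 2 correlated above 0.1 (r -0.377 to 0.202). Of 12 libraries, 3 correlated best with their own number. With 3 libraries per group and partly different numbers in each, this cannot show whether the numbers mark a shared animal or day. The labels do not say. With the replicate number as a block, 0 genes were called in ML351 against vehicle, 53 in cytokines plus ML351 against cytokines and 0 for the interaction. The block left 0 cytosolic genes lower in cytokines plus ML351 against cytokines (Qars, adjusted p = 0.055), gained Iars (0.033) and lost Pars2 (0.056) in cytokines against vehicle, gained Hars2 (0.020) in cytokines plus ML351 against ML351, and put Aars2 at 0.0148 in cytokines against vehicle. Counts were lowest for Mars2 (58 to 125 in a library), Pars2 (93 to 226) and Cars2 (110 to 391), where counting error weighs most.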
